A study of Mus musculus with 8 samples.

Results

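A set of 3040 regions of open chromatin was listed in 2 or more cell lines without tetracycline and in no line with it. Hotspots, the stretches where DNase I cleaved more often than around them, were taken from 8 lists and merged into 1 site wherever they overlapped by at least 1 bp. A site was kept when 2 or more of the 4 lists made without tetracycline held it and none of the 4 lists made with tetracycline did. The 3040 sites were 3.04% of the 99999 merged sites. The same rule turned round, with 2 or more lists with tetracycline and none without it, gave 1862 sites, or 1.86%. The order of these counts depended on where the lists begin: with 1 common threshold for both lists of a line they were 1030 and 2570, and with the median ratio of each line's shared sites also set to 1 they were 2123 and 2158. These listings chose the sites, so the counts describe the choice and carry no test.

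DNase-seq finds DNA that is not wrapped tightly in nucleosomes, because DNase I cuts such DNA first in isolated nuclei. Promoters, enhancers and insulators are typical places of such cutting. Chromatin remodelers are ATPases that slide, evict or space nucleosomes, and they can open or close a site. The SWI/SNF complexes draw on Brg1 for this, the NuRD complex on Chd4, and the ISWI complexes on Snf2h. A dominant-negative form cannot use ATP properly but still takes its place in the complex.

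The 3134 line, from mouse mammary epithelium, was studied with 3 lines derived from it. The groups without tetracycline were DNBrg1, DNCHD4 and DNSnf2h cells, which then produced dominant-negative Brg1, mouse Chd4 with a changed lysine or human SNF2H with a changed lysine, and parental 3134 cells, for which no dominant-negative protein is named. The groups with tetracycline were the same DNBrg1, DNCHD4 and DNSnf2h cells, with the dominant-negative protein repressed, and the same parental cells. The Chd4 and SNF2H constructs carried FLAG tags and had been integrated by a retroviral vector into 3134 cells holding a tetracycline transactivator. The labels do not say how the Brg1 construct was made or whether the parental cells hold the transactivator. The regulated lines were kept in 5 μg/ml tetracycline, and the same maintenance concentration is given for the parental samples. All cells were then cultured for 48 hours in medium with charcoal-stripped serum, with or without the drug. In the 3 derived lines, loss of tetracycline and production of the dominant-negative protein came together and cannot be told apart; in parental cells the labels name only the loss of tetracycline.

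Each line was measured with 1 library per tetracycline state. With 4 lines, a paired exact permutation test over lines could not give a two-sided p below about 0.13, so no p-value is given. The lists without tetracycline held 30423 to 78093 hotspots and those with it 24890 to 48888. Peak density, the highest cut density in a hotspot, is in the authors' scaled units throughout. The lists began at different densities: 10.0 without and 13.0 with tetracycline in parental cells, 9.19 without and 16.4 with it in DNBrg1 cells, 5.09 without and 8.05 with it in DNCHD4 cells, and 8.06 without and 8.03 with it in DNSnf2h cells. A site absent from a list may therefore still have been cut below the list's lowest density. The density that 1 sequenced tag was worth, which falls as depth grows where the scaling target is the same, was 0.257 without and 0.31 with tetracycline in parental cells. It was 0.255 without and 0.586 with the drug in DNBrg1 cells, 0.196 without and 0.179 with it in DNCHD4 cells, and 0.202 without and 0.187 with it in DNSnf2h cells. The part of these differences in the results was not tested.

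Nearly every site was held by the DNCHD4 list, and the parental list held a minority. The DNCHD4 list without tetracycline held 2958 of the 3040 sites (97.3%, 95% interval 96.7 to 97.8). The DNBrg1 list held 1578 (51.9%, 50.1 to 53.7), and the DNSnf2h list held 829 (27.3%, 25.7 to 28.9). The parental list held 1277 (42.0%, 40.3 to 43.8), which left 1763 sites (58.0%) listed by dominant-negative lines alone. The intervals are Wilson intervals and cover counting error only. Of all 99999 merged sites, the DNCHD4 list held 76777 (76.8%), the parental list 33769, the DNSnf2h list 32616 and the DNBrg1 list 29351. Under the reversed rule the parental list held 59.7% of the sites, and dominant-negative lines alone held 40.3%. The DNCHD4 list with tetracycline lacked only 19 of those sites (1.02%). Of 3462 sites held by 2 or more lists without tetracycline and 1 with it, the DNCHD4 list without tetracycline held 3362. A near-complete DNCHD4 share was thus not particular to the set. With both DNCHD4 libraries left out, the rule gave 1574 sites and the parental list held 89.1% of them; with both DNBrg1 libraries left out, it gave 1943 sites and the parental list held 69.9%.

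Pairs of lines made up most of the set. Exactly 2 lists held 2543 sites (83.7%), 3 lists held 432 (14.2%), and all 4 held 65 (2.14%). The most frequent pair was DNBrg1 with DNCHD4, at 1163 sites (38.3%). Parental with DNCHD4 followed at 804 (26.4%) and DNCHD4 with DNSnf2h at 494 (16.2%). The pairs that lacked DNCHD4 were rare: DNBrg1 with DNSnf2h had 38 sites, parental with DNBrg1 had 23, and parental with DNSnf2h had 21. No site was held by the parental, DNBrg1 and DNSnf2h lists without the DNCHD4 list. Under the reversed rule, DNBrg1 with DNCHD4 made up 191 of 1862 sites (10.3%), beside 658 (35.3%) for parental with DNCHD4. The DNBrg1 list began at a density of 9.19 without and 16.4 with tetracycline. The part of this in the counts of each combination was not tested.

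**Figure D1:**
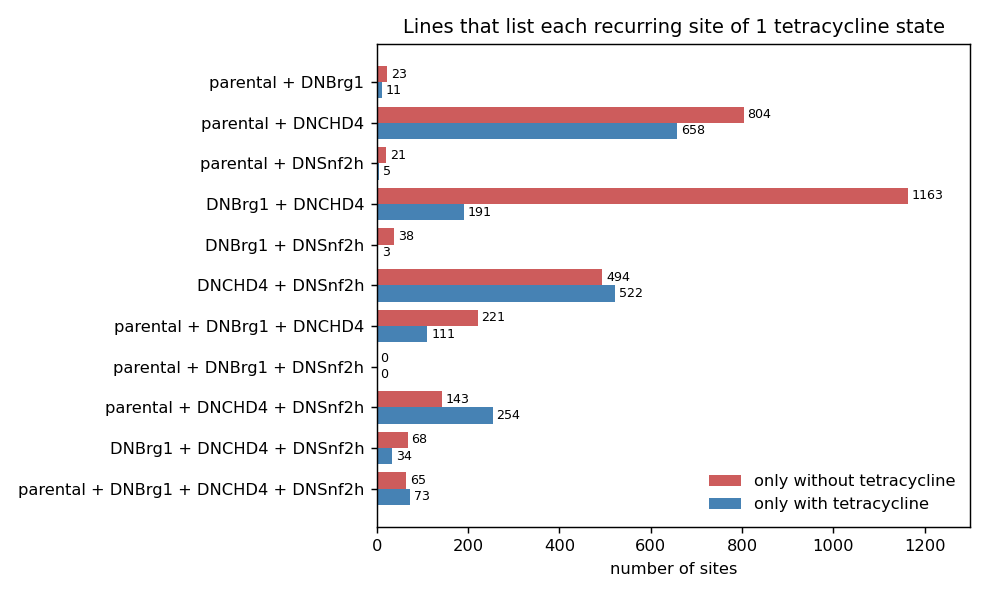
Number of sites (horizontal axis) listed by each combination of lines, for the 3040 sites recurring only without tetracycline (red) and the 1862 sites recurring only with it (blue). The pair of DNBrg1 and DNCHD4 had 1163 sites without and 191 with tetracycline, the widest gap of any combination, and every large bar includes DNCHD4. The DNBrg1 list began at a density of 9.19 without and 16.4 with tetracycline.

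The sites stood between a large group of sites listed once and a group also listed with tetracycline. Just outside the rule on one side, 45036 sites were held by 1 list without tetracycline and by none with it. In DNCHD4 those sites had a median peak density of 7.83, against 11.2 at the sites held by 2 lists, 16.1 at 3 and 17.8 at 4. The parental medians were 11.1 at sites listed once and 12.1, 12.7 and 13.9 at 2, 3 and 4 lists. Just outside on the other side, 3462 sites were held by 2 or more lists without tetracycline and by 1 list with it, which was the DNCHD4 list in 2851 cases. Their DNCHD4 median without tetracycline was 14.3, above the 11.9 of all 2958 sites of the set that DNCHD4 listed.

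Exactly 2 of the 8 lists held 9010 sites. The 2 lists of 1 line, without and with tetracycline, held 3979 of them (44.2%) over 4 pairs, of which 3573 were the DNCHD4 lists. Between lines, pairs in the same state together held more than pairs in opposite states, and most of these sites were in a DNCHD4 list. Pairs of different lines that lacked DNCHD4 held 21 to 38 sites without tetracycline, 3 to 11 with it and 4 to 15 in opposite states. Pairs of different lines without tetracycline held 2543 of them over 6 pairs of lists, and pairs of different lines with tetracycline held 1390 over 6 pairs. Pairs of different lines in opposite states held 1098 over 12 pairs. The DNBrg1 list without tetracycline shared 1163 such sites with the DNCHD4 list without tetracycline and 142 with the DNCHD4 list with it. The parental list without tetracycline shared 804 and 200 with the same DNCHD4 lists. The DNSnf2h list without tetracycline shared 494 and 190 with them. The 2 DNCHD4 lists differed in size. The one without tetracycline held 31957 sites that no other list held, and the one with it held 4011. The part of this difference in the shared counts was not tested.

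The recurrence carried over to a line that had no part in choosing the sites. For each line in turn, the rule was applied to the other 3 lines, and the resulting sites were read in the 2 libraries of the line left out. Parental cells listed 432 of 2262 such sites without tetracycline only and 41 with tetracycline only. Of the sites listed in 1 state, 91.3% (88.5 to 93.5) were thus listed without tetracycline, against 47.0% of all sites of the other lines that parental cells listed in 1 state. The 3 choosing lines were here the dominant-negative ones.

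The other lines gave shares of the same size. DNBrg1 cells listed 356 of 1943 sites without tetracycline only and 31 with it only, which is 92.0% (88.9 to 94.3) against 51.0% of all sites. DNCHD4 cells listed 508 and 72 of 1574, or 87.6% (84.7 to 90.0) against 55.9%. DNSnf2h cells listed 275 and 38 of 2554, or 87.9% (83.8 to 91.0) against 46.0%. In each line the share lay above that of all sites. The intervals cover counting error only, since the sites of a line come from 1 library per state and are not replicates. Sites of the reversed rule gave 8.33% in parental, 22.6% in DNBrg1, 4.37% in DNCHD4 and 12.8% in DNSnf2h cells. The 4 readings share choosing lines, so they are not independent of each other. Most of the sites were in neither list of the line left out: 77.9% in parental, 75.2% in DNBrg1 and 86.6% in DNSnf2h cells, but 5.21% in DNCHD4 cells.

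Starting both lists of the line left out at the same density lowered the share in DNBrg1 most. At such a common threshold, 53.8% (46.0 to 61.3) of the sites that DNBrg1 cells listed in 1 state were listed without tetracycline, against 9.17% of all sites. The share was 81.0% (75.8 to 85.2) in parental cells against 20.5%, 83.5% (80.2 to 86.3) in DNCHD4 against 45.6%, and 87.9% (83.9 to 91.1) in DNSnf2h against 47.3%. The share and that of all sites were both lower than in the lists as deposited in parental, DNBrg1 and DNCHD4 cells, whose lists with tetracycline begin at higher densities.

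**Figure D2:**
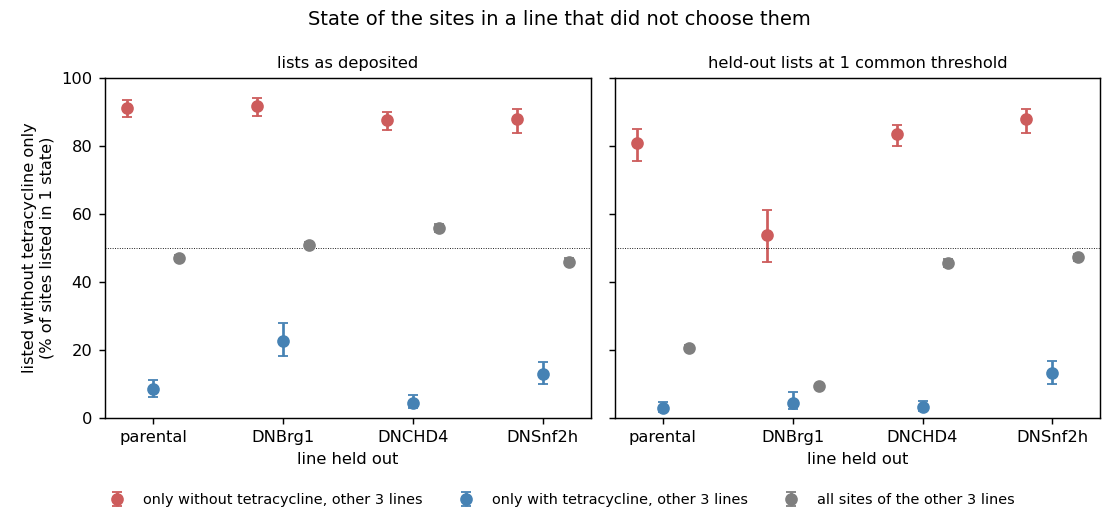
Share of sites listed without tetracycline only, among sites the line listed in 1 state (vertical axis, percent), in a line that did not choose the sites (horizontal axis), with Wilson 95% intervals. Red points, chosen by the other 3 lines as recurring only without tetracycline, lie at 87.6% to 92.0% in the left panel (lists as deposited), above all sites (grey) and sites recurring only with tetracycline (blue); in the right panel (1 common threshold) the red point of DNBrg1 is at 53.8%.

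Where the line left out listed a site in both states, the ratio of peak densities stood above that of all shared sites of the line, though below 0 in parental and DNBrg1 cells. At 912 sites of this kind, DNCHD4 cells had a median log2 ratio of the density without tetracycline to that with it of 0.51 (SD 0.80 across sites), against 0.02 over all shared sites. Density was higher without tetracycline at 719 of them (78.8%), against 51.7% of all shared sites. DNSnf2h cells had a median of 0.16 (SD 0.54) at 30 sites, against -0.02, and 19 of the 30 (63.3%) were higher, against 48.7%. Parental cells had -0.09 (SD 0.29) at 26 sites, against -0.40, and 10 of the 26 (38.5%) were higher, against 16.8%. DNBrg1 cells had -0.48 (SD 0.65) at 94 sites, against -0.64, and 24 of them (25.5%) were higher, against 10.8%. Relative to all shared sites of the line, the medians stood 0.49 higher in DNCHD4, 0.31 in parental, 0.18 in DNSnf2h and 0.16 in DNBrg1.

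In the lists as deposited, single lines carried the direction as well, though less far. Sites chosen in parental cells, as listed there without and not with tetracycline, were listed without tetracycline only, among those listed in 1 state, in 84.1% of cases in DNBrg1, 80.1% in DNCHD4 and 69.8% in DNSnf2h. Read in parental cells, sites chosen in the same way gave 69.5% when chosen in DNBrg1, 83.4% in DNCHD4 and 69.8% in DNSnf2h. The lowest share of the 12 ordered pairs of lines was 60.6%, for sites chosen in DNBrg1 and read in DNSnf2h. Over all sites of the other 3 lines, the share was 47.0% read in parental cells and 51.0% in DNBrg1. It was 55.9% in DNCHD4 and 46.0% in DNSnf2h. Those sites come from 3 lines rather than 1. Sites chosen as listed with and not without tetracycline gave 14.7% to 36.9%.

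In parental and DNBrg1 cells most of the sites were weak, close to the lowest density of the list, while in DNCHD4 cells they spread over the range of the list. In parental cells the 1277 listed sites had a peak density of 10.0 at the lowest, 12.4 at the median and 80.8 at the highest, against a median of 24.5 over the whole list. The 1578 sites of DNBrg1 ran from 9.19 through a median of 11.5 to 48.5, against a list median of 20.9. The 2958 sites of DNCHD4 ran from 5.09 through 11.9 to 135, against 14.1. The 829 sites of DNSnf2h ran from 8.06 through 9.67 to 26.2, against 11.3. The part of the list up to its lower quartile held 76.4% of the sites in parental and 73.4% in DNBrg1 cells, but 22.0% in DNCHD4 and 38.8% in DNSnf2h. The median site rested on 48 tags in parental cells, 45 in DNBrg1, 61 in DNCHD4 and 48 in DNSnf2h, so its counting error was 12.8% to 14.9%.

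In parental and DNBrg1 cells, most sites would have gone unlisted with tetracycline at the very density they had without it. In DNBrg1 cells 202 of 1578 sites (12.8%) reached the lowest density of the list with tetracycline, and in parental cells 518 of 1277 (40.6%) did. The counts were 2360 of 2958 (79.8%) in DNCHD4 and 829 of 829 (100%) in DNSnf2h, whose list without tetracycline begins above the one with it. In 2 or more lines at once, 1028 sites (33.8%) reached it. When the median ratio of the sites shared by both lists of a line was set to 1, from medians on the log2 scale of -0.40 in parental, -0.64 in DNBrg1, 0.03 in DNCHD4 and -0.02 in DNSnf2h cells, 2116 sites (69.6%) did. By line, the lowest density was then reached by 1277 sites (100%) in parental cells and 1046 (66.3%) in DNBrg1. At that scaling the counts were 2306 (78.0%) in DNCHD4 and 829 (100%) in DNSnf2h. The lowest hotspot with tetracycline within 50 kb cannot lie below the lowest of the whole list and does not mark where listing begins. Of the parental sites with such a neighbour, 14.8% reached its density, as did 3.24% in DNBrg1, 58.1% in DNCHD4 and 44.7% in DNSnf2h.

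Few sites stood clear of the lists with tetracycline in more than 1 line. A peak density of at least 2 times the lowest with tetracycline was reached by 24 sites in parental cells (1.88%, against 2.18% of all sites those cells listed without tetracycline only) and by 5 in DNBrg1 (0.317%, against 0.654%). It was reached by 793 in DNCHD4 (26.8%, against 11.3%) and 35 in DNSnf2h (4.22%, against 2.42%). In 1 or more lines 808 sites (26.6%) reached it, against 7.24% of all merged sites called 2-fold higher. In 2 or more lines 40 sites (1.32%) did, against 0.312% of all merged sites. With the median ratio set to 1, these became 139 sites (4.57%), against 0.755%. Merged sites listed with tetracycline were compared with their own density there, not with the lowest of the list. Of the 99999 merged sites, 51353 were in 1 list only and could not be called in 2 lines. The shares of the set and of all merged sites are thus not like for like. The rule used the same libraries, so these shares are a description.

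**Figure D3:**
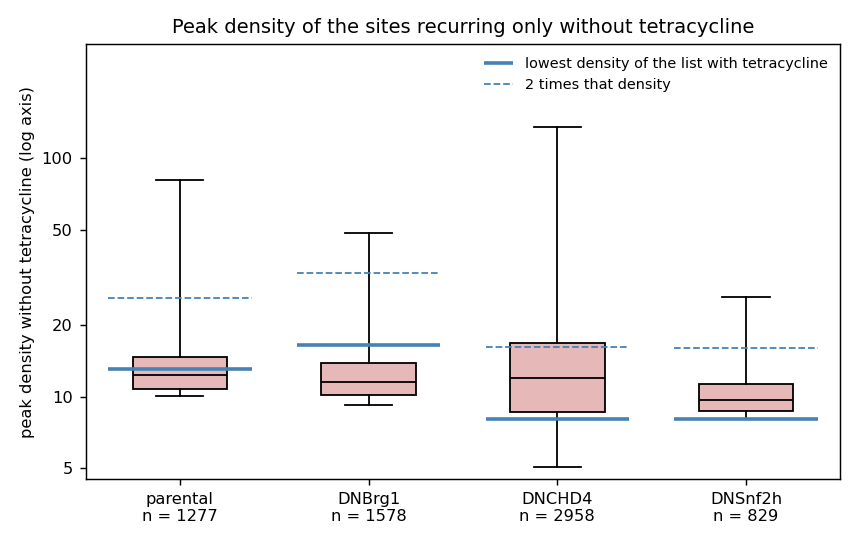
Peak density without tetracycline (vertical log axis, the authors' scaled units) of the sites that each line listed; boxes give quartiles and median, whiskers the lowest and highest site. Solid blue lines mark the lowest density of the same line's list with tetracycline and dashed lines 2 times that value; the DNBrg1 box lies wholly below its solid line (16.4) and the DNSnf2h box wholly above its own (8.03).

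The number of a hotspot in its list bears on absent sites, because the lists are numbered in genome order with gaps. At 678 of the 3040 sites (22.3%), none of the 4 lists with tetracycline lacked a number between the hotspots on either side, so no numbered hotspot is absent there. At 510 sites (16.8%) all 4 lists lacked at least 1 number. The parental list with tetracycline lacked a number at 61.6% of the sites, beside 64.2% of all merged sites that it did not hold. The shares were 49.3% beside 47.8% in DNBrg1, 52.2% beside 55.8% in DNCHD4 and 30.9% beside 33.0% in DNSnf2h.

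The 65 sites listed by all 4 lines were spread over 19 chromosomes. DNCHD4 had the highest density of the 4 lines at 41 of them and DNSnf2h the lowest at 43. This order was not particular to the 65 sites. Over all merged sites shared by DNCHD4 and DNSnf2h without tetracycline, the medians were 56.2 and 15.5. DNCHD4 was also above parental (36.4 and 25.5) and DNBrg1 (41.9 and 22.7). DNSnf2h was also below parental (16.5 and 45.6) and DNBrg1 (17.9 and 37.3). Their densities had a median of 13.9 in parental cells (10.0 to 80.8), 12.8 in DNBrg1 (9.19 to 48.5), 17.8 in DNCHD4 (7.05 to 95.4) and 10.5 in DNSnf2h (8.06 to 24.4). The lowest density of the list with tetracycline was reached by 42 of the 65 in parental cells, 23 in DNBrg1, 62 in DNCHD4 and 65 in DNSnf2h.

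**Figure D4:**
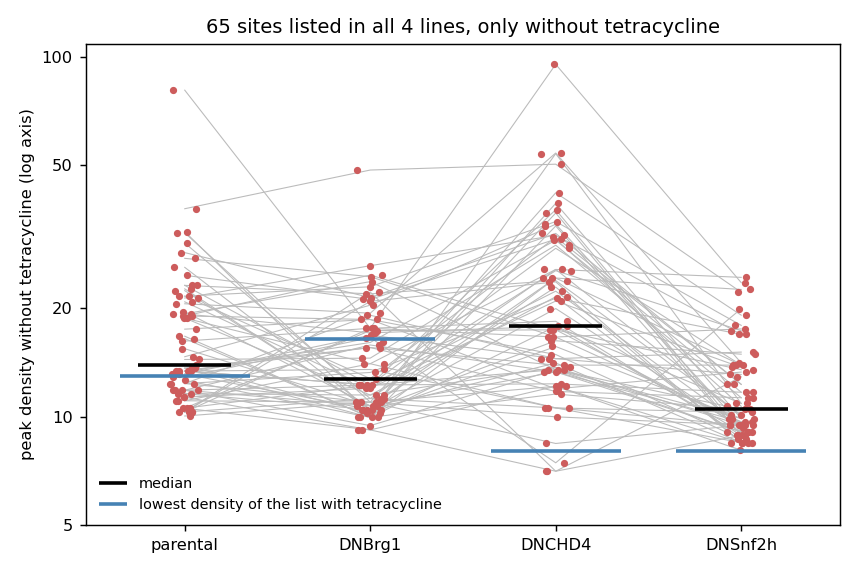
Peak density without tetracycline (vertical log axis, the authors' scaled units) of the 65 sites listed by all 4 lines (horizontal axis); each point is a site, grey lines join the values of 1 site, black bars are medians and blue bars the lowest density of the list with tetracycline. All 65 points of DNSnf2h and 23 of the 65 points of DNBrg1 reach the blue bar, and 1 site stands at 80.8 in parental and 95.4 in DNCHD4 cells.

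One site stood well above the rest in parental cells. On chromosome 1 from 134365331 to 134366292 (build mm9, as for all coordinates), peak density without tetracycline was 80.8 in parental (314 tags, exact Poisson interval 72.1 to 90.3), 17.6 in DNBrg1, 95.4 in DNCHD4 (487 tags, 87.1 to 104) and 23.6 in DNSnf2h cells. No list with tetracycline held it, and none lacked a number there. The densities were 6.21, 1.07, 11.8 and 2.94 times the lowest of the list with tetracycline of the same line, in that order. Within 50 kb the lists with tetracycline held 1 hotspot in parental, DNBrg1 and DNSnf2h cells and 2 in DNCHD4 cells. The lowest hotspot with tetracycline there was 70.1 in parental, 49.8 in DNBrg1, 12.0 in DNCHD4 and 16.6 in DNSnf2h cells. Against these local values the site stood 7.96-fold higher in DNCHD4 but 1.15-fold in parental cells.

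Among the 65 sites in all 4 lists, the one with the highest smallest ratio to the lists with tetracycline was on chromosome 14 from 93470757 to 93471562. Its peak densities without tetracycline were 37.8 in parental, 48.5 in DNBrg1, 50.3 in DNCHD4 and 22.2 in DNSnf2h cells. These were 2.91, 2.96, 6.25 and 2.76 times the lowest densities of the lists with tetracycline, and no other of the 65 sites passed 2 in all 4 lines. The lists with tetracycline lacked 3 numbers at this position in parental, 2 in DNBrg1 and 5 in DNCHD4 cells, and none in DNSnf2h. The ratios in those 3 lines therefore do not bound the density with tetracycline.

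Other sites reached high values in some of the lines. On chromosome 8 from 19982591 to 19983231, density was 44.0 in parental, 40.6 in DNBrg1 and 67.8 in DNCHD4 cells, 3.38, 2.47 and 8.42 times the lowest with tetracycline. No number was missing there, but 18 other sites lay within 50 kb, and the lowest hotspot with tetracycline among them was 21.4 in parental and 34.6 in DNBrg1 cells. On chromosome 1 from 20404685 to 20405406, density was 41.7 in parental, 32.7 in DNCHD4 and 13.5 in DNSnf2h cells, and no hotspot with tetracycline lay within 50 kb. The lists with tetracycline lacked 4 numbers there in parental and 7 in DNCHD4 cells.

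On chromosome 9, a site from 108177543 to 108178114 was held by all 4 lists, with no number missing from any list with tetracycline. Its densities were 24.7 in parental, 21.2 in DNBrg1, 31.1 in DNCHD4 and 10.7 in DNSnf2h cells, which is 1.90, 1.29, 3.87 and 1.33 times the lowest with tetracycline. A further site on chromosome 9, from 78348006 to 78348652, also had no number missing, at 23.2, 21.9, 23.9 and 10.1 in the same order of lines. The Poisson intervals of the 2 sites overlapped in each line.

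Within each pair of lines, 1 site was taken for the highest value of the smaller of its 2 ratios to the lists with tetracycline, so other sites of a pair had higher densities in 1 line. For DNBrg1 with DNCHD4 this site was on chromosome 10 from 80206900 to 80207501, at 31.1 in DNBrg1 and 32.1 in DNCHD4 cells, 1.90 and 3.99 times the lowest with tetracycline. For parental with DNCHD4 it was on chromosome 10 from 23261519 to 23262264, at 36.8 and 22.7, or 2.83 and 2.82 times, and each of these 2 lists with tetracycline lacked 6 numbers there. For DNCHD4 with DNSnf2h it was on chromosome 8 from 46774680 to 46775482, at 21.2 and 17.7, or 2.63 and 2.21 times. The DNCHD4 list with tetracycline lacked 1 number at that site. In the pairs without DNCHD4, the sites taken in this way were at 13.9 in parental and 25.3 in DNBrg1 cells on chromosome 4 from 59771358 to 59771954, at 16.2 in parental and 11.1 in DNSnf2h on chromosome 3 from 95126806 to 95127318, and at 18.6 in DNBrg1 and 13.5 in DNSnf2h on chromosome 7 from 39057441 to 39058052. At the chromosome 7 site the DNSnf2h list with tetracycline lacked 1 number. At the weak end, a site on chromosome 1 from 14765370 to 14765824 had 9.19 in DNBrg1 and 7.05 in DNCHD4 cells, both under the lowest density with tetracycline.

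The ranking of sites by density was shared between lines only loosely. Across the 1233 sites listed by parental and DNCHD4 cells, Spearman's rho of the densities without tetracycline was 0.49, beside 0.90 across the 32636 merged sites those lists share. The other pairs of lines had 0.32 to 0.42 within the set and 0.66 to 0.81 over all merged sites. The set spans a narrower range of densities than all sites, and sites are not independent replicates, so these values describe the lists.

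Sites next to the set showed a shift of the same sign. Sites within 10 kb of one of the 3040 sites, listed in both states of a line, had a median log2 ratio, taken in the same direction, of -0.34 in parental cells (n = 1230) against -0.40 over all shared sites. The values were -0.60 (n = 1001) against -0.64 in DNBrg1, 0.15 (n = 1727) against 0.03 in DNCHD4, and 0.06 (n = 724) against -0.02 in DNSnf2h. Next to sites of the reversed rule the medians were -0.47, -0.76, -0.09 and -0.17 in the same order of lines. The neighbours thus stood 0.04 to 0.12 above all shared sites in every line.

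The sites were wider than sites listed once without tetracycline and lay nearer to sites listed with it. The median width was 585 bp (quartiles 525 and 649.2), beside 425 bp at sites listed once, without tetracycline, and 754 bp at sites listed in both states. A merged site spans all the hotspots merged into it, and the rule asks for hotspots from several lists. Within the set the median width rose with the number of lists that held a site, from 573 through 632 to 700 bp. The widths are thus partly set by the merging, and its part in the difference was not tested. The nearest site listed with tetracycline was a median of 12870 bp away, and 44.1% of the 3040 sites had one within 10 kb. Sites listed once, without tetracycline, had a median distance of 22238 bp, and 34.3% had one within 10 kb. For the reversed rule the median distance to a site listed without tetracycline was 3969 bp. The lists without tetracycline together covered more sites, and the part of this in the distances was not tested. The sites seldom lay side by side: 19.6% had another of the 3040 within 50 kb. Of the set, 28 sites (0.921%) lay in dense clusters with 20 or more other sites within 50 kb, beside 0.662% of all merged sites.

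Every chromosome contributed, and the shares ranged about 2-fold. The set took up 1.85% of the merged sites of chromosome 18 and 2.49% of those of chromosome 14 at the low end, and 3.91% of those of chromosome 13 at the high end. DNBrg1 cells listed 607 sites on chromosome 18 and 760 on chromosome 14 without tetracycline, and 19 and 34 of these belonged to the set. Counting only the 1462 sites that DNBrg1 did not list, chromosome 18 had 1.22% and chromosome 14 had 1.47%, beside 1.46% over all chromosomes. On the X chromosome 70 of 1895 sites (3.69%) belonged to the set, against 10 (0.528%) to the reversed rule. All 70 were listed by DNCHD4 cells, whose list without tetracycline held 89.5% of the merged sites of the X chromosome and 76.8% of all merged sites.

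**Figure D5:**
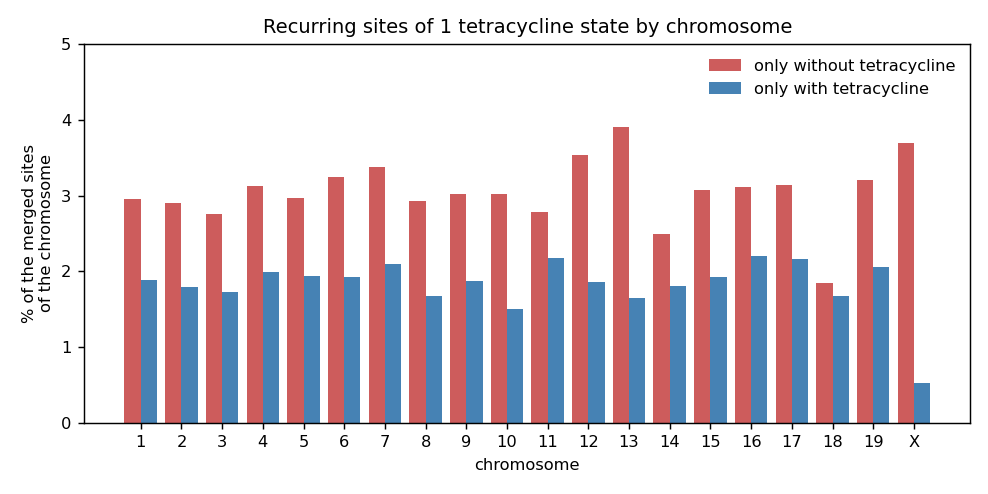
Share of the merged sites of each chromosome (vertical axis, percent) that recurred only without tetracycline (red) or only with it (blue). Red bars run from 1.85% on chromosome 18 to 3.91% on chromosome 13, and the blue bar of the X chromosome, at 0.528%, is the lowest of its colour.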

How the data were processed

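DNase-seq of 8 libraries was analysed, 1 for each of 4 lines with and without tetracycline, grouped by the submitters' labels. The submitters' processing notes name CASAVA 1.6 and the build mm9. How hotspots were called and filtered, and to what total the densities were scaled, is not stated in the labels or headers. Each library came with 1 deposited list, in which the highest density of a hotspot is a signal (coverage density); 100% of the values of each list were whole multiples of 1 tag within 0.05 tags. The score and the p-value that the authors deposited per hotspot are not reported. Total depth is unknown.

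Sites were merged and read with Python 3.11.15, numpy 2.4.6, pandas 2.3.3 and scipy 1.17.1, and drawn with matplotlib 3.10.9. Calling of sites by the rule, not of hotspots, was tested on simulated data. The planted sites stood well above 1 threshold shared by both lists of a line, so the test does not cover the weak sites of the set. Intervals are Wilson for shares and exact Poisson for tags, at 95%; reads without molecular identifiers are not independent molecules. Named sites were those in all 4 lists (10 with the highest smallest ratio to the list with tetracycline), the 6 with the highest second ratio, the 1 site of each pair of lines with the highest smaller ratio, the 3 highest in parental cells and the 2 weakest, without dense clusters; the text gives part of these. Coordinates are as deposited. No genome or annotation of build mm9 was used here, so the planned gene lists, motif search and sequences were not run. The sites and rules were chosen with earlier results of these data known.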

Additional observations from a re-analysis of the deposited data

Results flagged for a closer look

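In lines that had no part in choosing the sites, the median log2 ratio, without over with tetracycline, at sites listed in both states was above 0 in DNCHD4 (0.51) and DNSnf2h (0.16) cells and below 0 in parental (-0.09) and DNBrg1 (-0.48) cells. Lines with 1 library per state thus moved in opposite directions as deposited, and the difference was not tested. Relative to all shared sites of the same line, the medians were 0.49, 0.18, 0.31 and 0.16 higher, in that order.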

How the results depend on the processing

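The number of sites, 3040 in all, was 1030 with 1 common threshold for both lists of a line, 1696 with every list started at 1.5 times its lowest density, 497 with 3 or more lists required and 678 without sites where a list with tetracycline lacked a number. The parental share was 48.5%, 86.3% and 56.3% with the common threshold, 3 lists and no missing numbers, and 56.2% with the median ratio set to 1. Here and below, setting the median ratio to 1 was combined with the common threshold. The reversed rule gave 732 sites at 1.5 times and 472 with 3 lists. Sites at least 2-fold above the list with tetracycline in 2 or more lines numbered 10 at 1.5 times, 133 with the median ratio set to 1 and 20 without missing numbers.

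In the line left out, the share listed without tetracycline only, in the order parental, DNBrg1, DNCHD4 and DNSnf2h, was 93.6%, 70.0%, 92.2% and 94.0% with the common threshold in all lines, 94.3%, 95.5%, 96.4% and 93.1% at 1.5 times, and 100%, 98.5%, 91.7% and 92.8% with 3 lists. It was 86.4% in parental and 88.5% in DNBrg1 without missing numbers, and 88.3% in DNBrg1 and 83.3% in DNCHD4 with the median ratio set to 1. Under that last setting, the median log2 ratio was 0.43 in parental and 0.29 in DNBrg1 cells. With 3 lists, too few sites were listed in both states of parental cells to give this ratio.

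Leaving out both libraries of 1 line in turn gave 1574 to 2554 sites, the lowest without DNCHD4, a parental share of 50.7% to 89.1%, the highest without DNCHD4, and 1350 to 1779 sites of the reversed rule. The 2-fold count was 27 to 39. The share in the line left out was 82.3% to 97.7% in parental, 87.8% to 96.4% in DNBrg1, 84.6% to 90.9% in DNCHD4 and 74.6% to 91.0% in DNSnf2h cells. Of all values recomputed, 106 stayed within 1.5 times (counts) or within the interval or spread (shares and medians), and 51 did not. No paired analysis was possible because no result comes from a test: lines pair the libraries and each value was read within its line, but 4 pairs cannot reach a small p, and the numbers in the titles follow the tetracycline state, not a pairing. Total depth is unknown, so sites under a list's lowest density could not be measured.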
